A study of Homo sapiens with 2 samples.

Results

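The proteasome and its inducible forms were followed in LNCaP, a prostate cancer cell line that responds to androgen, in 2 RNA-seq libraries. The members were all genes of the expression table whose symbol is PSMA, PSMB, PSMC, PSMD, PSME, PSMF or PSMG followed by a number, which gave 46 of 12075 listed genes. Of the symbols of this form in the role lists used here, PSMA8, a testis form of an alpha subunit, and PSMB11, the thymus catalytic subunit, were not analysed here. PSMC3IP, a meiotic recombination factor that shares the letters, falls outside the form of the symbols and is not a proteasome gene.

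In the oe library LNCaP cells had received the CM of M2 macrophages labelled oe-YY1. In the nc library the macrophages were labelled nc-YY1. YY1 is a zinc finger transcription factor, and M2 macrophages are a polarisation state set beside tumor-associated macrophages. Both libraries carry the genotype WT and the time Day 0, the treatment label adds the word cocultured, and the labels do not spell out oe, nc or CM, so it is not stated whether the cultures held macrophages. The labels also carry an adipogenic protocol with insulin, which was not used here.

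There was 1 library per group. No difference below therefore has a replicate check, a standard error or a p-value, and each describes these 2 libraries alone. Levels are in FPKM, a value per transcript length and library size, so that genes can be compared with each other. Log2 ratios compare FPKM + 1 in the oe library with FPKM + 1 in the nc library, so a positive one means higher in oe, and the added 1 shrinks the differences of genes near 0. Genes past 2-fold on this scale were called higher or lower. The read depth is unknown. Of 9 luminal prostate markers, all 9 were in the table. The luminal keratin KRT8 had 38.1 FPKM in the oe library and 39.2 in the nc library, KLK3, which encodes PSA, had 77.6 and 358 FPKM in the oe and nc libraries, and the summed level of the 9 was 421 FPKM in the oe library and 1119 FPKM in the nc library. In bulk RNA, fewer cells of a type and less RNA per cell cannot be told apart.

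The proteasome degrades proteins marked with ubiquitin. Its 20S core is a barrel of alpha and beta rings with the proteolytic sites inside, and the 19S cap, built from PSMC ATPases and PSMD subunits, recognises, unfolds and feeds in the substrate. When cells meet interferon gamma or other inflammatory cytokines, PSMB9, PSMB10 and PSMB8 can take the place of the constitutive catalytic subunits PSMB6, PSMB7 and PSMB5 in newly built cores, giving the immunoproteasome, which yields many of the peptides that MHC class I molecules present. Other caps can replace the 19S cap, among them PA28 alpha-beta, made of PSME1 and PSME2, PA28 gamma, made of PSME3 in the nucleus, and PA200, which is PSME4.

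The inducible catalytic subunits were higher in the oe library, each by more than 2-fold, while the subunits they replace were slightly lower. PSMB9, the inducible beta1 subunit (ENSG00000240065.7_3, chromosome 6, 32811913 to 32827362, as deposited, in human coordinates whose build no source used here states), had 11.9 FPKM in the oe library and 0.699 FPKM in the nc library, for a log2 ratio of 2.92, or 3.91 with 0.1 added in place of 1. It was below 1 FPKM in the nc library and passed the filter on low values through the oe library alone. PSMB8, the inducible beta5 subunit (ENSG00000204264.8_2, chromosome 6, 32808494 to 32812480), had 33.3 FPKM in the oe library and 6.94 FPKM in the nc library, for a log2 ratio of 2.11. PSMB10, the inducible beta2 subunit (ENSG00000205220.11_3, chromosome 16, 67968405 to 67970990), had 24.3 FPKM in the oe library and 9.89 FPKM in the nc library, for a log2 ratio of 1.21. The order of the 3 genes by level thus differed between libraries, with PSMB8 the most abundant in the oe library and PSMB10 in the nc library.

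Among the 11126 genes tested, those that reached 1 FPKM in either library, 65 had a higher log2 ratio than PSMB9, 165 a higher one than PSMB8 and 515 a higher one than PSMB10. Of all 46 proteasome genes, these 3 were the ones at least 2-fold higher, and 6.46% of all genes tested were at least 2-fold higher. As a count over the whole family, 3 of 46 is thus close to the background share, which was 10.1% with 0.1 added in place of 1. At the lower end PSME3 alone was at least 2-fold lower, where 5.83% of all genes tested were. On the higher side, the called member nearest the 2-fold limit was PSMB10, and the nearest member not called was PSME4 at 0.85. On the lower side PSME3 at -1.69 was called and PSMG1 at -0.89 was not.

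**Figure D1:**
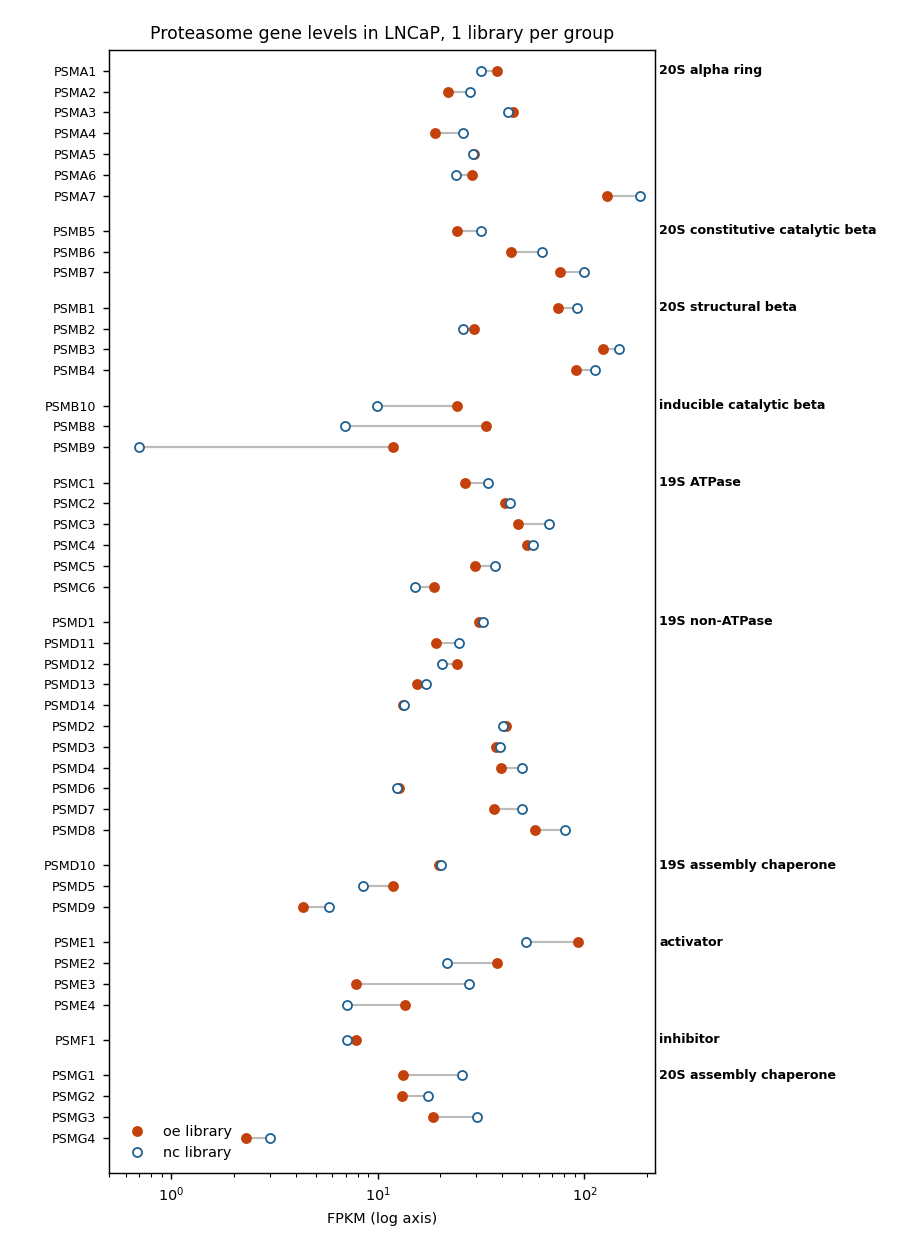
Level of each of the 46 proteasome genes in FPKM on a log axis, grouped by role, with a filled point for the oe library and an open point for the nc library and a line between the 2 values. The long lines belong to PSMB9 (11.9 and 0.699 FPKM in the oe and nc libraries), PSMB8 (33.3 and 6.94) and PSME3 (7.86 and 27.6), while most subunits of the core and cap have points close together.

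Set against the subunit it replaces, each inducible gene held a larger share of the pair in the oe library. PSMB9 made up 21.2% of the summed FPKM of PSMB9 and PSMB6 in the oe library and 1.11% in the nc library. PSMB10 made up 24.1% of the summed FPKM of PSMB10 and PSMB7 in the oe library and 9.01% in the nc library. PSMB8 made up 58.1% of the summed FPKM of PSMB8 and PSMB5 in the oe library and 17.9% in the nc library. PSMB8 was thus the one inducible gene above its partner, and only in the oe library, while PSMB9 and PSMB10 stayed below theirs in both libraries.

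These shares are taken within a library and do not depend on how the libraries are scaled to each other. Together the 3 inducible genes summed to 69.5 FPKM in the oe library and 17.5 FPKM in the nc library. The 3 genes they replace summed to 145 FPKM in the oe library and 194 FPKM in the nc library. The inducible share of all 6 was 32.5% in the oe library and 8.29% in the nc library. These are shares of mRNA, and the make-up of assembled proteasomes was not measured.

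**Figure D2:**
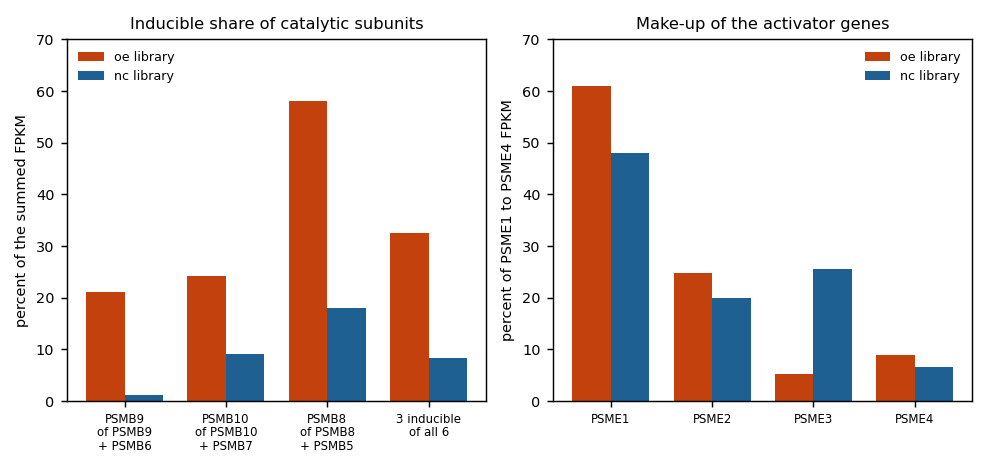
The left panel gives the inducible share of the summed FPKM, in percent, for each pair of inducible and constitutive catalytic subunit and for all 6 genes. The right panel gives the percent of the summed FPKM of PSME1 to PSME4 held by each gene, with the oe library as the left bar and the nc library as the right bar of each pair. PSMB8 reached 58.1% of its pair in the oe library, and PSME3 held 5.18% of the activator FPKM in the oe library and 25.5% in the nc library.

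PSMB8 and PSMB9 lie in the MHC class II region beside the peptide transporter genes. Of these, TAP2 had 16.2 FPKM in the oe library and 9.32 in the nc library, and TAP1 had 34.3 and 9.31 FPKM in the oe and nc libraries. The listed locus of PSMB9 overlaps that of TAP1 by 8770 bases and that of PSMB8 by 568 bases, both on the opposite strand. The kits named include a stranded preparation, but no source used here says whether strand was used in counting, so reads of these overlapping stretches may not be told apart. The ratio of PSMB9 to TAP1 was 0.347 in the oe library and 0.0751 in the nc library, the second resting on a PSMB9 level below 1 FPKM. How reads of the overlap were assigned was not tested. PSMB10, on another chromosome, overlaps AC040162.1 by 1516 bases on the same strand, and that gene had 1.85 FPKM in the oe library and 1.18 in the nc library.

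The activators differed in direction, with PSME1, PSME2 and PSME4 higher by less than 2-fold and PSME3 lower by more than 2-fold. PSME1, the alpha chain of PA28 (ENSG00000092010.14_2, chromosome 14, 24605367 to 24608176), had 92.7 FPKM in the oe library and 51.95 FPKM in the nc library, for a log2 ratio of 0.82. PSME2, its beta chain (ENSG00000100911.15_3, chromosome 14, 24612571 to 24616779), had 37.7 FPKM in the oe library and 21.6 FPKM in the nc library, for a log2 ratio of 0.78. The ratio of PSME1 to PSME2 was nearly the same in the oe library (2.46) and in the nc library (2.41). PSME4, the PA200 cap, known in mice for histone degradation in sperm development, had 13.6 FPKM in the oe library and 7.07 FPKM in the nc library, for a log2 ratio of 0.85.

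PSME3, which forms PA28 gamma and is known for degradation of nuclear proteins without ubiquitin, went the other way (ENSG00000131467.10_2, chromosome 17, 40976402 to 40995775). It had 7.86 FPKM in the oe library and 27.6 FPKM in the nc library, for a log2 ratio of -1.69, and 211 of the genes tested had a lower one. PSME1 and PSME2 together were 16.6 times PSME3 in the oe library and 2.66 times PSME3 in the nc library. PSME3 held 5.18% of the summed activator FPKM in the oe library and 25.5% in the nc library. Its locus overlaps that of BECN1 by 8966 bases on the opposite strand, and BECN1 had 9.52 FPKM in the oe library and 7.59 FPKM in the nc library. The inhibitor PSMF1, a regulator also called PI31, had 7.87 FPKM in the oe library and 7.11 FPKM in the nc library.

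PSME1 and PSME2 are near neighbours on chromosome 14, with EMC9 between them. EMC9, a subunit of the ER membrane complex, had 8.33 FPKM in the oe library and 19.004 FPKM in the nc library, for a log2 ratio of -1.10, a call in the direction opposite to both PA28 genes. IRF9, in the same stretch of the chromosome, had 2.01 FPKM in the oe library and 2.47 FPKM in the nc library.

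Promoter letters are shown for the inducible subunits, each past 2-fold, and for PSME1 and PSME2, which had log2 ratios above 0 within 2-fold. Sequences are RefSeq promoters on GRCh38.p14, from 250 bases before to 50 after an annotated start, and 40 of the 46 genes were matched. A gene with several annotated starts was counted for a motif if any of its promoters held it. The core of the interferon-stimulated response element, GAAA followed by any 2 bases and a second GAAA, was searched on both strands. It was found for 7 of the 40 matched genes (17.5%), against 4.38% of all 27305 genes in the table of promoters. Among PSMB8, PSMB9, PSMB10, PSME1 and PSME2 it was found in 4 of 5, all but PSMB9, and among the constitutive core and cap subunits in 2 of 26 matched genes. The 30-base windows that hold it follow, 5′ to 3′ on the strand of the gene, with the matched letters in capitals (read on the other strand for PSMB8 and PSME1).
PSMB8 (chr6:32844032-32844061, minus strand): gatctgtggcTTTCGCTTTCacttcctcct
PSMB10 (chr16:67936852-67936881, minus strand): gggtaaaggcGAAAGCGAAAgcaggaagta
PSME1 (chr14:24136189-24136218, plus strand): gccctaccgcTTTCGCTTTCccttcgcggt
PSME2 (chr14:24146619-24146648, minus strand): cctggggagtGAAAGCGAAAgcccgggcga
PSMG4 (chr6:3258904-3258933, plus strand): ttccggggccGAAAGCGAAAgcgcgctcgg
PSMB4 (chr1:151399495-151399524, plus strand): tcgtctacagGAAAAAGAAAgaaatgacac
PSMA4 (chr15:78540155-78540184, plus strand): atagtgaagaGAAAATGAAAggagagcgcc

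PSMB8, PSMB10, PSME1, PSME2 and PSMG4 share the same 10 matched letters, GAAAGCGAAA on one strand or the other. PSMG4 carries them too, although it had 2.30 FPKM in the oe library and 2.995 FPKM in the nc library, and PSMA4 and PSMB4 were also lower in the oe library. The match is a description of letters in a window, and no binding was measured. PSMB9 is shown because it had the highest log2 ratio of the family and no match in this window, from which nothing follows about the factors that act on it.
PSMB9, the 250 bases before its start (chr6:32853942-32854191, plus strand): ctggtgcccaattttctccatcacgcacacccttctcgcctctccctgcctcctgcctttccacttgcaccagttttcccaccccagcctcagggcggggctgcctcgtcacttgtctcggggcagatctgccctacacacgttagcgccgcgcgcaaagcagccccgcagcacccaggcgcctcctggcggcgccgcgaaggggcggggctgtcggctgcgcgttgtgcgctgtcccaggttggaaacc

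TTCNNNGAA, the gamma-activated site bound by STAT factors, was found for 7 of 40 matched genes (17.5%), against 9.38% of all genes, namely PSMB8, PSME3 and 5 of the 26 matched constitutive subunits. In PSMB8, which holds both motifs at the same annotated start, they do not overlap, with first bases at -65 and -4 from that start. The promoter of its further annotated start held neither motif. A form of the kappaB site, GGG followed by any 3 bases and TTCC, was found for 3 of 40 (7.50%), against 7.83% of all genes, and for none of PSMB8, PSMB9, PSMB10, PSME1 and PSME2. TGACNNNGC, the antioxidant response element through which NRF1 acts on proteasome genes, was found for 15 of 40 (37.5%), against 16.1% of all genes. It was found for 3 of the 5 inducible and PA28 genes (PSMB9, PSME1 and PSME2) and for 7 of the 26 constitutive subunits. CCAAT was found for 19 of 40 (47.5%), against 39.7%, and the GC box GGGCGG for 28 of 40, against 48.3%.

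The constitutive core and cap subunits differed little between the libraries. Of 31 such genes, 9 had a log2 ratio above 0 and 22 below 0, where 5477 and 5649 of all 11126 genes tested did. None of the 31 reached 2-fold or 1.5-fold in either direction. Among all genes tested, 6.46% were at least 2-fold higher and 5.83% lower, and at 1.5-fold 15.3% were higher and 15.2% lower. The median of the 31 was -0.26, where the median of all genes tested was -0.01. The ratios ran from -0.52 for PSMA7 to 0.29 for PSMC6. Scaled to equal sums of FPKM per library, 14 lay above 0 and 17 below, and the median of the 31 was -0.14. That scaling moved the median of all genes tested by 0.10 on the log2 scale.

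The alpha ring, which gates entry to the core, had 7 measured genes of unequal level. PSMA7 was the most abundant of the 46 genes, at 129 FPKM in the oe library and 185 FPKM in the nc library. PSMA4 was the least abundant of the ring in the oe library, at 18.8 FPKM against 25.7 FPKM in the nc library, so PSMA7 was 6.86 times PSMA4 in the oe library and 7.20 times in the nc library. The ring itself holds each alpha subunit in equal number. PSMA2 was also lower, at 21.8 FPKM in the oe library and 27.8 FPKM in the nc library. PSMA1 (37.9 FPKM in the oe library and 31.4 in the nc library), PSMA6 (28.5 and 24.0), PSMA3 (45.1 and 42.5) and PSMA5 (29.2 and 28.8) had log2 ratios from 0.02 to 0.26. The alpha ring thus held both directions, with a median of 0.02.

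The constitutive catalytic subunits all lay below 0. PSMB7, with the trypsin-like site, had 76.3 FPKM in the oe library and 99.9 FPKM in the nc library. PSMB6, with the caspase-like site, had 44.2 FPKM in the oe library and 62.4 FPKM in the nc library. PSMB5, with the chymotrypsin-like site and the main target of bortezomib, had 24.0 FPKM in the oe library and 31.7 FPKM in the nc library. Their log2 ratios lay between -0.49 and -0.38, a narrow range beside the 1.21 to 2.92 of the inducible genes. Of the beta subunits without a proteolytic site, PSMB3 (123 FPKM in the oe library and 147 in the nc library), PSMB4 (91.3 and 112) and PSMB1 (74.4 and 92.0) were lower by less than 1.5-fold. PSMB2 was the one beta subunit of the constitutive core with a ratio above 0, at 29.2 FPKM in the oe library and 25.8 FPKM in the nc library.

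**Figure D3:**
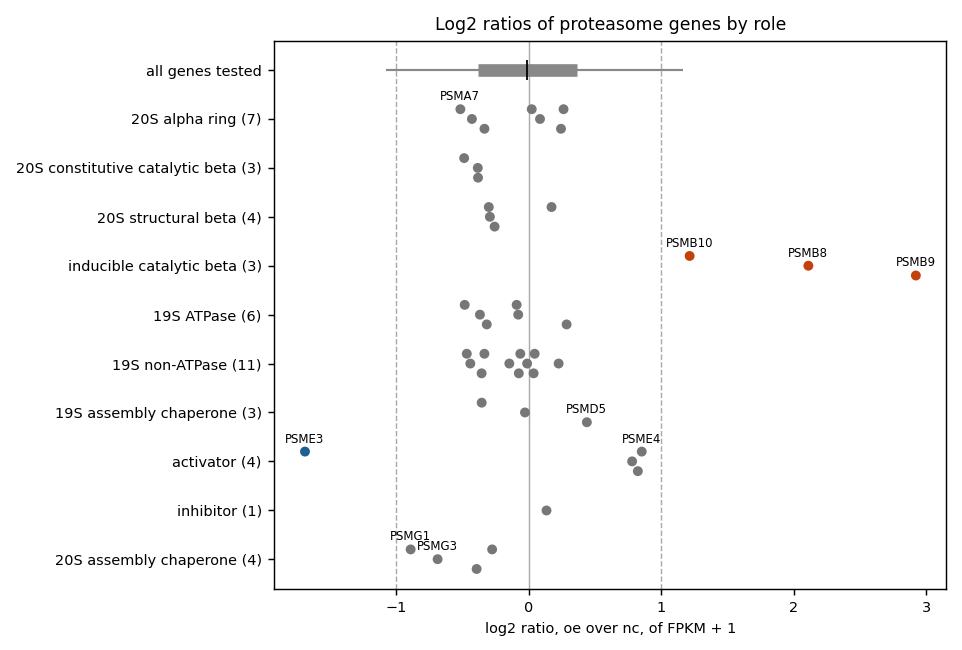
Log2 ratio of FPKM + 1, oe over nc, for each proteasome gene (points), by role with the number of genes in brackets; orange and blue points are at least 2-fold higher and lower, and dashed lines mark 2-fold. The top row gives all 11126 genes tested as the median (tick), the middle 50% (thick bar, -0.38 to 0.36) and the middle 90% (thin line, -1.08 to 1.17). The inducible subunits lie right of the thin line and PSME3 left of it, while the other roles lie inside it.

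In the 19S cap, the ATPases PSMC1 to PSMC6 form the ring that unfolds substrates. PSMC3 had the lowest log2 ratio of them, -0.48, at 47.8 FPKM in the oe library and 67.3 FPKM in the nc library. PSMC6 had the highest, 0.29, at 18.7 FPKM in the oe library and 15.2 FPKM in the nc library. PSMC2 (41.3 FPKM in the oe library and 43.7 in the nc library) and PSMC4 (52.8 and 56.3) were nearly level, and PSMC1 (26.3 and 34.3) and PSMC5 (29.4 and 36.9) lower by less than 1.5-fold. Reads of PSMC1 may be shared with copies, since GENCODE 29 lists 13 pseudogenes under its name, the most of any member.

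The non-ATPase subunits recognise and process ubiquitin. PSMD4, a ubiquitin receptor, had 39.3 FPKM in the oe library and 49.8 FPKM in the nc library. PSMD14, the protease that removes ubiquitin chains before degradation, had 13.3 FPKM in the oe library and 13.4 FPKM in the nc library. The scaffold subunits PSMD1 (30.9 FPKM in the oe library and 32.3 in the nc library) and PSMD2 (41.5 and 40.2) also differed little. The lowest log2 ratios of this group belonged to PSMD8 (-0.47, at 57.8 FPKM in the oe library and 80.4 in the nc library) and PSMD7 (-0.44, at 36.4 and 49.8 FPKM). PSMD12 had the highest, 0.23, at 24.0 FPKM in the oe library and 20.4 FPKM in the nc library. The 11 genes had a median of -0.08, or 0.04 at equal library sums, and 3 of them were above 0.

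The assembly factors of the core all had log2 ratios below 0, with a median of -0.54 for 4 genes, where the alpha ring they help to build had a median of 0.02. PSMG1, which pairs with PSMG2 to guide the alpha ring, had 13.2 FPKM in the oe library and 25.4 FPKM in the nc library, for a log2 ratio of -0.89. PSMG2 had 13.1 FPKM in the oe library and 17.5 FPKM in the nc library, for a log2 ratio of -0.39. PSMG3, which pairs with PSMG4, had 18.4 FPKM in the oe library and 30.3 FPKM in the nc library, for a log2 ratio of -0.69. In both pairs of chaperones, the gene with the higher level in the nc library had the lower log2 ratio, that of PSMG4 being -0.28. Since the nc level is also part of the ratio, this order is partly built in, and nothing is drawn from it. Of the 4, none reached 2-fold, and PSMG1 and PSMG3 passed 1.5-fold, as did 15.2% of all genes tested.

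The assembly factors of the cap differed in direction. PSMD5 had 11.9 FPKM in the oe library and 8.50 FPKM in the nc library, for a log2 ratio of 0.44 and the highest outside the inducible subunits and activators. PSMD10, also known as the oncoprotein gankyrin, had 19.8 FPKM in the oe library and 20.2 FPKM in the nc library. PSMD9 had 4.32 FPKM in the oe library and 5.81 FPKM in the nc library, and its locus overlaps that of another listed gene on the same strand.

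Over all 46 genes the summed level was 1629 FPKM in the oe library and 1814 FPKM in the nc library, or 0.821% and 0.839% of the FPKM of all listed genes in the oe and nc libraries. At 1.5-fold, the size used for the authors' tables, 6 of 46 were higher, where 15.3% of all genes tested were, and 3 were lower, where 15.2% were. The authors' deposited table of changed genes lists the same 9 genes, PSMB9, PSMB8, PSMB10, PSME4, PSME1 and PSME2 as higher and PSME3, PSMG1 and PSMG3 as lower. Its log2 values are the same as those computed here from the same 2 libraries, so this match was fixed in advance.

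The constitutive subunits are set here beside genes of like level and length. Among all genes tested whose geometric mean of the 2 libraries was 50 to 100 FPKM, the median log2 ratio was -0.31, and that of the 6 constitutive subunits in this range was -0.43. From 20 to 50 FPKM it was -0.22 for all 1261 genes and -0.08 for 18 subunits. From 10 to 20 FPKM it was -0.09 for all genes and 0.01 for 4 subunits, and over 100 FPKM it was -0.37 for all genes and -0.29 for 3 subunits. In each range but 50 to 100 FPKM, the median of the subunits thus lay above that of all genes of like level. By transcript length, the 2753 genes with the shortest transcripts (up to 980.5 bases) had a median of -0.15 and the 13 subunits among them -0.34. For the 2755 genes next in length the medians were -0.11 for all genes and -0.09 for 13 subunits. Level and length thus moved with the ratio across the whole table, and their part in the values of the subunits was not tested.

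Proteasome genes whose symbols have another form lay close to the constitutive subunits. Of 13 such genes, 1 was at least 2-fold higher and none was at least 2-fold lower, where 6.46% and 5.83% of all genes tested were. The median log2 ratio of the 13 was -0.19. POMP, the chaperone that completes the core and is needed for immunoproteasome assembly, had 198 FPKM in the oe library and 227 FPKM in the nc library and was the most abundant. The ubiquitin receptor ADRM1 had 48.7 FPKM in the oe library and 55.7 FPKM in the nc library. ZFAND5, a zinc finger protein that stimulates the 26S proteasome, was the higher member, at 49.7 FPKM in the oe library and 17.9 FPKM in the nc library. Of 14 ubiquitin genes, ubiquitin-activating enzymes, shuttle receptors and linked ligases, none reached 2-fold in either direction, and the median was -0.0026, or 0.12 at equal library sums. UBB, a polyubiquitin gene, had 124 FPKM in the oe library and 129 FPKM in the nc library, and RPS27A, the most abundant of them in the nc library, had 114 and 142 FPKM in the oe and nc libraries.

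NFE2L1 encodes NRF1, the factor that raises the constitutive proteasome genes when proteasome activity is short. NFE2L1 had 19.7 FPKM in the oe library and 30.9 FPKM in the nc library, for a log2 ratio of -0.63, and its relative NFE2L2 had 4.70 and 8.18 FPKM in the oe and nc libraries. Of the 11 measured genes on this route, 2 were at least 2-fold higher and none at least 2-fold lower. Among all genes tested, 6.46% were higher and 5.83% lower. The median log2 ratio of the 11 was 0.18. The 2 higher genes were BACH1, a repressor at antioxidant response elements, and the small MAF protein MAFF. BACH1 had 5.15 FPKM in the oe library and 1.49 FPKM in the nc library. MAFF had 1.40 and 0.0988 FPKM in the oe and nc libraries. MAFF passed the filter on low values through the oe library alone, and with 1 FPKM asked in both libraries the count was 1. VCP, the ATPase that extracts NRF1 from the ER, was the most abundant, at 106 FPKM in the oe library and 96.7 FPKM in the nc library.

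Genes listed here as regulators of the inducible subunits, receptor chains among them, were chosen with earlier results of these data known. The counts are thus a description and not a test. Of the 19 measured regulators, 10 were at least 2-fold higher, 9 lay within 2-fold and none was at least 2-fold lower. Among all genes tested, 6.46% were higher and 5.83% lower. The median log2 ratio of the 19 was 1.02. IRF1, a transcription factor that mouse studies show to be needed for induction of the immunoproteasome, had 11.4 FPKM in the oe library and 0.461 FPKM in the nc library. NLRC5, the transactivator of MHC class I genes, had 2.86 FPKM in the oe library and 0.280 FPKM in the nc library. IFNGR1, a chain of the interferon gamma receptor and the most abundant of the list in the oe library, stood at 86.4 FPKM there and 10.9 FPKM in the nc library. Others at least 2-fold higher included the NF-kappaB subunits NFKB1, NFKB2, RELB and RELA, with STAT3 and CIITA. IRF9 was the one with a ratio below 0. Over the 14 regulators that reached 1 FPKM in both libraries, 7 were at least 2-fold higher and the median was 0.99.

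The genes that carry proteasome products to MHC class I split in the middle. This list, too, was chosen with earlier results of these data known, so its counts are a description and not a test. Of 20 genes, 10 were at least 2-fold higher and none was at least 2-fold lower. Among all genes tested, 6.46% were higher and 5.83% lower. The median log2 ratio of the 20 was 0.93. Over the 18 genes that reached 1 FPKM in both libraries, 9 were at least 2-fold higher. The higher ones included TAP1, TAPBP, TAPBPL, ERAP1 and B2M, and the count also takes in MHC class I heavy chain genes, which have close copies and uncertain values. B2M, the light chain of MHC class I, had 85.7 FPKM in the oe library and 21.8 FPKM in the nc library. The peptidases of the cytosol differed less, with THOP1 at 7.82 FPKM in the oe library and 12.2 in the nc library, BLMH at 9.48 and 17.5, LAP3, itself known to respond to interferon gamma, at 17.9 and 18.6, TPP2 at 7.17 and 6.13, and NPEPPS at 16.1 and 13.5. The chaperone CANX had the lowest ratio, -0.98, at 42.0 FPKM in the oe library and 83.8 FPKM in the nc library, and CALR was the most abundant, at 413 and 447 FPKM in the oe and nc libraries.

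**Figure D4:**
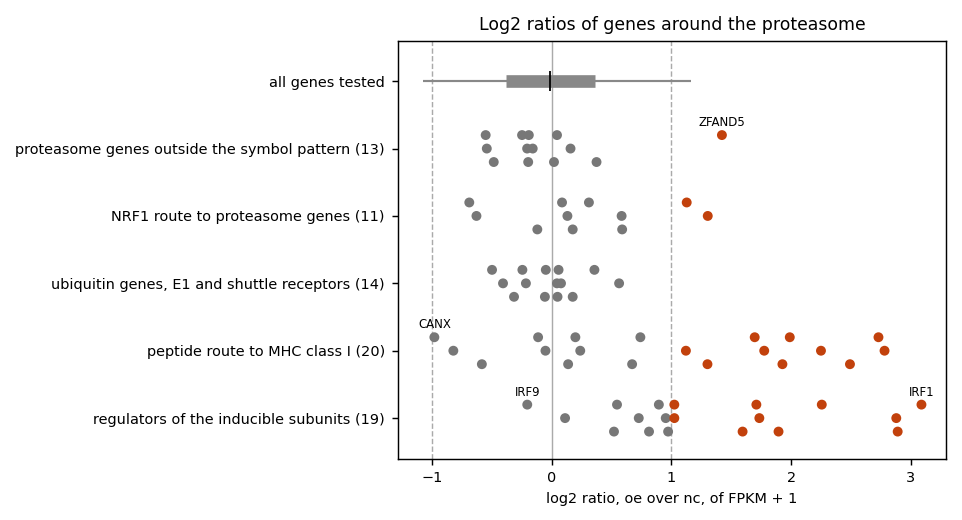
Log2 ratio of FPKM + 1, oe over nc, for genes around the proteasome (points), by list with the number of measured genes in brackets; orange points are at least 2-fold higher and dashed lines mark 2-fold. The top row gives all genes tested as the median (tick), the middle 50% (thick bar) and the middle 90% (thin line). The regulators and the peptide route each hold 10 genes beyond the right dashed line, and the ubiquitin list holds none.

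Leukocytes express the inducible subunits at rest, so leukocyte and macrophage markers are given beside them. Of 17 markers, 12 were not among the listed genes, PTPRC and CD14 included, so no level can be given for them. None of the 5 that were listed was at exactly 0 in either library. In the nc library, however, ITGAM (0.00787 FPKM), LYZ (0.0382) and CTSS (0.0409) were close to 0. In the oe library these had 2.34, 0.603 and 5.87 FPKM. CD68 had 4.18 FPKM in the oe library and 0.632 FPKM in the nc library. LCP1 had 114 FPKM in the oe library and 89.9 FPKM in the nc library, and the other 4 (CD68, ITGAM, LYZ and CTSS) summed to 13.0 FPKM in the oe library and 0.719 FPKM in the nc library. Against that, PSMB8, PSMB9 and PSMB10 summed to 69.5 FPKM in the oe library and 17.5 FPKM in the nc library. The part of other cell types in these differences was not tested.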

How the data were processed

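The members and gene lists were chosen with earlier results of these data known. The authors deposited FPKM values per gene, per the file headers, and the submitters' processing notes name StringTie 2.1.0. No source used here names an aligner. Those notes name mm10, while the identifiers and coordinates in the table are human, so coordinates are printed as deposited, with no build stated for them. No listed gene was under 0.50 FPKM in both libraries. The authors' tables of changed genes hold log2 values, linear fold ratios of FPKM + 1 and p-values that are 1 for each gene and were not used, per the file headers and a check of the values.

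From the FPKM table, log2 ratios were computed with a pseudocount of 1 for the 11126 genes that reached 1 FPKM in one library or both, all 46 members among them. No test was possible with 1 library per group. How the 2-fold limit compares with the noise between libraries, at low FPKM in particular, was not tested. Named genes were each member and, in other lists, those past 2-fold, the most abundant and marker genes, and others named (ADRM1, UBB, NFE2L1, NFE2L2, EMC9, BECN1, TAP2, IRF9, THOP1, BLMH, LAP3, TPP2, NPEPPS, CANX and AC040162.1) were chosen after their values were seen. Alternatives were other pseudocounts, filters, scalings and a 1.5-fold size. Transcript lengths came from GENCODE 29 and promoters from RefSeq. A planned comparison of protein sequences was not run. Python 3.11.15, numpy 2.4.6, pandas 2.3.3 and matplotlib 3.10.9 were used. Some genes of the lists are counted but their values are not reported here.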

Additional observations from a re-analysis of the deposited data

How the results depend on the processing

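No paired analysis was possible because each group had 1 library. The log2 ratios of the 46 members kept their direction where past 2-fold, and their side of the 2-fold limit, in all 366 combinations of member and alternative, each alternative setting apart from the 1.5-fold size. PSMB9 drops out where 1 FPKM in both libraries is asked, and the median of the inducible subunits was then 1.66. With a size of 1.5-fold the counts of members were 6 higher and 3 lower, and 2 genes of the NRF1 route and 2 of the peptide route were lower. Median log2 ratios with a pseudocount of 0.1 were 2.25 for the inducible subunits, 1.24 for the peptide route and 1.53 for the regulators. Over genes that reached 5 FPKM in one library or both they were -0.69 for the core chaperones and 1.37 for the regulators. The NRF1 route had 1 gene at least 2-fold higher under that filter and 1 with 1 FPKM in both libraries. Scaling to the same sum of FPKM moved the medians by about the shift of all genes, to -0.0012 for all members, -0.14 for the constitutive subunits, 0.14 for the alpha ring, -0.27 and -0.15 for the constitutive catalytic and other beta subunits, 2.23 for the inducible subunits, -0.085 for the ATPases, 0.92 for the activators, 0.24 for PSMF1, -0.43 for the core chaperones, -0.070 for the genes with other symbols, 0.28 for the NRF1 route, 1.05 for the peptide route and 1.14 for the regulators. It turned the median above 0 for the non-ATPase subunits (0.044), the cap chaperones (0.088) and the ubiquitin list (0.12). Shares of the pairs do not change with scaling. A pattern across replicates could not be examined, and the unknown depth leaves low values such as PSMB9 in the nc library without an interval.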
